A study of Rattus norvegicus with 6 samples.

Results

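The transcripts described here belong to the machinery that folds new proteins and that responds when folding fails: heat shock proteins and their regulators, J-proteins, the cytosolic chaperonin, protein disulfide isomerases, the translocon and signal recognition particle, the sensors and transcription factors of endoplasmic reticulum (ER) stress, and ER-associated degradation. They were chosen by gene symbol alone, from a pattern of symbol stems (Hspa, Hspb, Hsp90, Hsf, Dnaja to Dnajc, Pdia, Cct, Bag, Creb3, Sec61 to Sec63, Ssr, Srp and others) together with a minimum of 10 counts summed over the 6 libraries. Of 13728 genes held, 114 symbols matched and 110 reached the minimum. Of these 110, 109 also passed the filter for testing, which kept 10607 genes that reached 10 counts in 3 or more libraries. Cct6b, with between 0.121 and 0.959 CPM (counts per 1000000 of the scaled library size), was the member left untested.

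Chaperones of the Hsp70 family bind unfolded stretches of protein in cycles of ATP hydrolysis, J-proteins bring them their clients, and nucleotide exchange factors such as the Bag proteins release them. Proteins destined for secretion enter the ER through the Sec61 channel, are folded there by Hspa5 (BiP), Hsp90b1, calnexin and the disulfide isomerases, and are returned to the cytosol for degradation when folding fails. Unfolded protein in the ER activates the sensors Ern1 (IRE1), Atf6 and Eif2ak3 (PERK), which act through Xbp1, cleaved Atf6 and Atf4, and in secretory epithelia such as the glands of the endometrium this response also accompanies the build-up of secretory capacity.

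Bulk RNA-seq was performed on 3 samples of rat endometrial epithelial organoids (rEEOs) and 3 samples of rat bone marrow mesenchymal stem cells (rBMSCs). The rEEOs were grown at low passage from uterine glandular fragments of female Sprague-Dawley rats 5 weeks old, in Matrigel droplets with an expansion medium holding growth factors, Wnt activators, a TGF-beta receptor inhibitor and a ROCK inhibitor. The rBMSCs carried a red fluorescent protein, were bought commercially, and were grown on dishes in medium with serum, so that cell type, culture format, medium and donor cannot be told apart. No treatment of either cell type before RNA extraction was given, nor whether the samples came from separate animals or cultures, so p-values measure the spread between these samples only.

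The libraries held between 10457958 and 15421501 expected counts over the genes analysed. The labelled cell types were checked against their markers: the summed level of 9 epithelial genes ranged in rBMSCs from 2.79 to 3.44 and in rEEOs from 6430.3 to 8009.8 CPM, and that of 10 mesenchymal genes from 149037 to 152861 and from 197 to 496 CPM. Most of the mesenchymal sum was Col1a1, Col3a1 and Col1a2 in rBMSCs, and nearly all of it was Vim in rEEOs. Nt5e, at a mean of 2.08 CPM in rBMSCs, did not pass the test described below, and Dcn, at 0.576 CPM, was not tested. Haematopoietic genes summed to between 23.1 and 133 CPM in rEEOs, nearly all of it Cd68. In rEEOs replicates 1, 2 and 3, Adgre1 had 18, 0 and 4 counts and Aif1 had 3, 8 and 1, both with 0 counts in every rBMSCs library, while Laptm5 was at 0 and Csf1r at no more than 2 counts in any rEEOs library. Endothelial genes summed to less than 2.25 CPM in every library. Among rEEOs, replicate 1 stood apart from replicates 2 and 3: the median SD of log2(CPM + 1) over all genes tested was 0.0877 in rBMSCs, 0.340 in rEEOs and 0.164 in rEEOs without replicate 1. All CPM values here use library sizes scaled by the TMM method and serve to compare 1 gene between libraries. Levels of different genes are compared in TPM, a unit that accounts for transcript length.

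Promoter sequences show which members carry the DNA elements by which this machinery is known to be switched on. Windows of 250 bases before to 50 after the start were held for 90 of the 110 members (RefSeq, GRCr8). The ER stress element, to which Atf6 and Xbp1 bind together with NF-Y, was searched on both strands as CCAAT followed, after 9 bases of any kind, by CCACG. It was found in 21 of 27457 genes (0.0765%) and in 7 of the 90 members (7.78%). The windows below are shown because they place master chaperones, Xbp1 itself and an ER degradation gene side by side. Each is written 5′ to 3′ along the strand of its gene, with the fixed letters of the element in capitals. CGTGG followed by ATTGG is the element on the opposite strand.
Hspa5, chr3:38452953-38453011, plus strand: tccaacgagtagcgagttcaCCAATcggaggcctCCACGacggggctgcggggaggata
Hsp90b1, distal, chr7:23012431-23012489, minus strand: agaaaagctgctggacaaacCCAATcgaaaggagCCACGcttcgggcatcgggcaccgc
Hsp90b1, proximal, chr7:23012327-23012385, minus strand: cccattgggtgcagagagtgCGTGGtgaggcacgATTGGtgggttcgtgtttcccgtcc
Canx, chr10:35158049-35158107, minus strand: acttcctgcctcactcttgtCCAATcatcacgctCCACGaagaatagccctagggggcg
Xbp1, chr14:84604538-84604596, plus strand: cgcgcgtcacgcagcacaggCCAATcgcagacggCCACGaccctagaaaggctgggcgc
Dnajc3, chr15:102432514-102432572, plus strand: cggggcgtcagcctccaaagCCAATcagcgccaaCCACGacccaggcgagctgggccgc
Ero1b, chr17:92941438-92941496, plus strand: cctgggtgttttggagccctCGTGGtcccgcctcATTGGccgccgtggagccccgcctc
Derl3, chr20:12766581-12766639, minus strand: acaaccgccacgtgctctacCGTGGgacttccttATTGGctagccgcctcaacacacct

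The heat shock element, the binding site of the Hsf factors, was searched on both strands as GAA, TTC and GAA, with 2 bases of any kind between neighbouring units. It was found in 218 genes (0.794%) and in 6 members (6.67%), namely Hspa8, Hsph1, Hspd1, Hspe1, Dnaja1 and Cct4. The windows of Hspa8, Hspe1 and Hsph1 are shown for comparison with the values of these genes, with the same conventions. Hspd1 and Hspe1 lie next to each other, and the window of Hspe1 is part of the shared stretch between them, where 2 overlapping matches on opposite strands were found.
Hspa8, distal, chr8:50080281-50080333, plus strand: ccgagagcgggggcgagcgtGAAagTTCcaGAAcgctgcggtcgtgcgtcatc
Hspa8, proximal, chr8:50080439-50080491, plus strand: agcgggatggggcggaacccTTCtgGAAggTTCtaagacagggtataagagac
Hspe1, chr9:64084247-64084299, plus strand: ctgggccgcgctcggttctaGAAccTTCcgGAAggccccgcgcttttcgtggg
Hsph1, chr12:10427312-10427364, plus strand: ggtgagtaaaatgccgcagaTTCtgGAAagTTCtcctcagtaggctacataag

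The other 3 elements were searched in the same windows. The second form of the ER stress element, ATTGG and CCACG with 1 base between them, was found in 17 genes, 2 of them members (Hyou1 and Dnajb11). The unfolded protein response element TGACGTGG was found in 187 genes (0.681%) and 6 members (Bag2, Bag3, Dnajc10, Dnajc25, Hyou1 and Srp19), and overlapped the second form in Hyou1. The C/EBP-ATF element TGATGNAA was found in 1141 genes (4.16%) and in 3 members (3.33%). A match describes these letters only, and none of these comparisons was tested. The elements were searched because they are known from this machinery, so a higher share among members is no independent result.

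Compared to the rest of the transcriptome, fewer folding and ER stress genes passed the test between the cell types. Of the 109 members tested, 48 had an adjusted p below 0.05 by the quasi-likelihood test of edgeR, with Benjamini-Hochberg adjustment over all genes. This is 44.0%, against 63.4% of all genes tested. In rEEOs, 23 members were higher (21.1%, against 33.3% of all genes) and 25 were lower (22.9%, against 30.2% of all genes). With an absolute log2 fold change above 2 as well, 7 were higher (16.3% of all genes were) and 5 lower (13.3% of all genes were), or 11.0% of members, against 29.7% of all genes in either direction. The median absolute log2 fold change was 0.40 over members and 0.99 over all genes, and 60 members lay within 0.5 of no change. Restricted to genes with a mean of at least 10 CPM, 41.7% of 96 members and 62.4% of 8157 genes passed. The libraries of the cell types did not overlap for 69 members, 35 with every rEEOs library higher and 34 with every rEEOs library lower (36.9% and 35.9% of all genes did so), and 21 of these 69 did not pass the test.

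The balance of directions depended on the scaling. The median log2 fold change of all genes was 0.08 with TMM, 0.46 when libraries were scaled by their totals alone, and -0.22 on log2(TPM + 1) with limma. That of members was -0.00, 0.38 and -0.25. With TMM, 47.9% of the called members were higher in rEEOs, with totals alone 46 were higher and 16 lower (74.2% higher), and on log2(TPM + 1) 14 were higher and 30 lower (31.8% higher). Changes near these shifts therefore have no fixed sign. The number called also moved with single libraries: without rEEOs replicate 1, 37 members were higher and 39 lower, and without rBMSCs replicates 1, 2 and 3 in turn, 13, 13 and 14 were higher and 17, 18 and 17 lower.

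**Figure D1:**
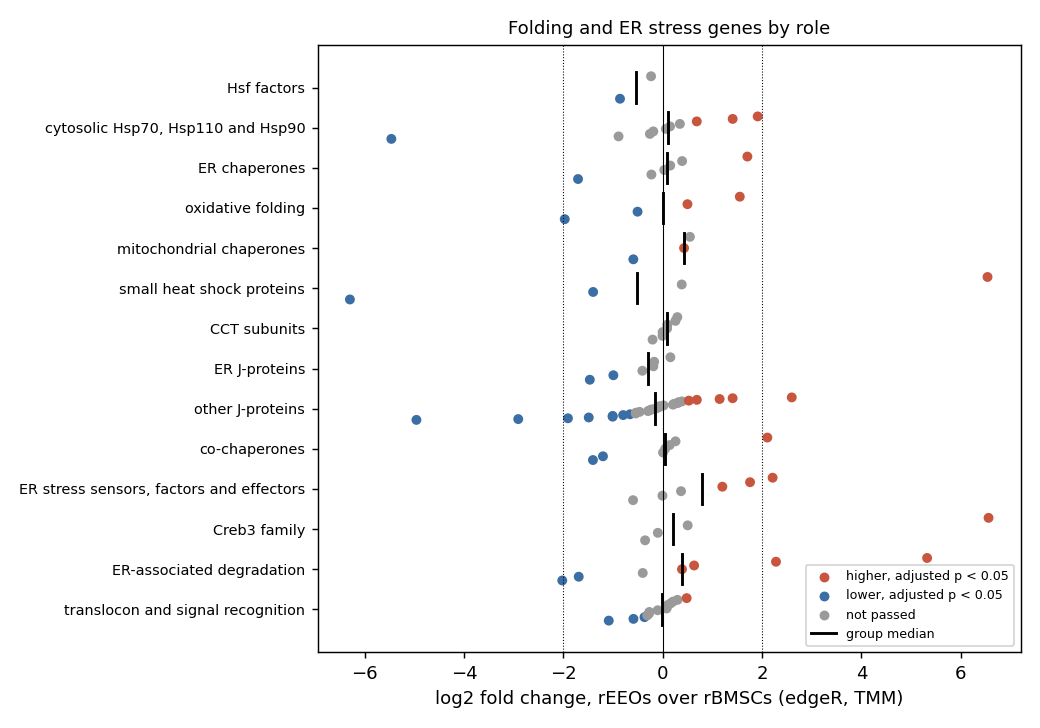
Each point is 1 member tested, placed by its log2 fold change of rEEOs over rBMSCs (horizontal axis, TMM scaling) in its role group (vertical axis). Red points were higher and blue points lower with an adjusted p below 0.05, grey points did not pass, the black bar is the group median, and the dotted lines mark -2 and 2. The CCT subunits lie between -0.20 and 0.29, whereas small heat shock proteins reach both ends of the axis.

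The general chaperones were among the most abundant members in both cell types. In rBMSCs the highest levels were those of Hsp90ab1, the constitutive cytosolic Hsp90, at 946 ± 15.4 TPM (SD, n = 3), and of Hspa8, the constitutive cytosolic Hsp70, at 919 ± 23.8 TPM, followed by Hspa5 at 812 ± 36.7 TPM. In rEEOs the order began with Hspa8 at 1249 ± 282 TPM and Hsp90ab1 at 1027 ± 259 TPM, whose ranges overlapped, and Pdia3 followed at 780.3 ± 114 TPM. Atf4 stood among the first 5 in both, at 743 ± 4.20 TPM in rBMSCs and 767 ± 212 TPM in rEEOs. Since RNA was measured in bulk, fewer cells of a type and less RNA per cell cannot be told apart.

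**Figure D2:**
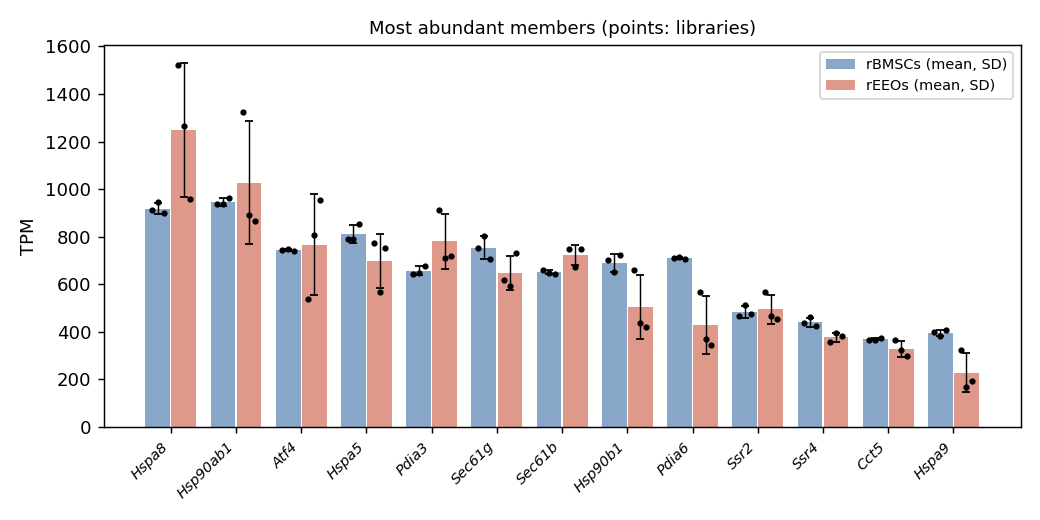
Bars give the mean level in TPM (vertical axis, from 0) of the most abundant members in rBMSCs (blue) and rEEOs (red), with SD over 3 libraries as error bars and each library as a point. Hspa8 and Hsp90ab1 led in both cell types, and the points of rEEOs were spread more widely than those of rBMSCs.

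Of the heat shock transcription factors, Hsf2 was lower in rEEOs and Hsf1 did not pass the test. Hsf1, the factor that switches on heat shock genes after protein damage, was read at 47.5, 47.0 and 43.6 CPM in rBMSCs replicates 1, 2 and 3 and at 30.1, 51.7 and 35.7 CPM in rEEOs replicates 1, 2 and 3. Replicate 2 of rEEOs exceeded every rBMSCs library, and the log2 fold change was -0.23 ± 0.22 (SE, adjusted p = 0.376). Hsf2 was read at 31.4, 32.3 and 29.1 CPM in rBMSCs and at 16.6, 18.9 and 15.5 CPM in rEEOs. The groups did not overlap, and Hsf2 fell by 0.86 ± 0.15 on the log2 scale (adjusted p = 0.00289).

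Among 10 cytosolic Hsp70, Hsp110 and Hsp90 genes, Hspa8, Hspa1a and Hspa2 were higher and Hspa12a was lower in rEEOs. The share called was 40.0%, against 63.4% of all genes. Hspa8 was read at 1302, 1419 and 1288 CPM in rBMSCs and at 2105, 2530.4 and 1810.2 CPM in rEEOs. All rEEOs libraries were higher, at a log2 fold change of 0.68 ± 0.18 (adjusted p = 0.017), which did not pass in 6 of 15 alternatives, among them the fits without any of the rBMSCs libraries and both fits on TPM. Its promoter holds the heat shock element at the sites shown above. Hspa2, the Hsp70 best known from spermatogenesis, rose from between 8.43 and 9.01 CPM to between 19.6 and 25.1 CPM (log2 fold change 1.41 ± 0.18, adjusted p = 0.000682).

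Hspa1a, the stress-inducible Hsp70, was rare in both cell types. It was read at 3.84, 2.42 and 5.04 CPM in rBMSCs and at 7.11, 12.6 and 22.9 CPM in rEEOs, a log2 fold change of 1.91 ± 0.50 (adjusted p = 0.015) that did not pass without rBMSCs replicate 1 or 2, where the adjusted p was 0.0513 and 0.0553. Its counts were not whole in any library, as RSEM gives where it shares reads between near-identical copies, and Hspa1b, its neighbour in the genome, was not analysed here, so the level of Hspa1a is uncertain. Immediate early genes, which also respond to cell dissociation, moved with it: the summed level of 8 such genes was between 346 and 362 CPM in rBMSCs and between 1201 and 6054 CPM in rEEOs, lowest in replicate 1 and highest in replicate 3, and 6 of the 8 were higher. Their part in the level of Hspa1a was not tested.

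The remaining cytosolic Hsp90 and Hsp110 genes did not pass. Hsp90ab1 was read at 1515, 1598 and 1568 CPM in rBMSCs and at 2078, 2019 and 1849 CPM in rEEOs. Its groups did not overlap, yet the log2 fold change of 0.34 ± 0.15 had an adjusted p of 0.0832. The inducible Hsp90aa1 showed a log2 fold change of 0.15 ± 0.13 (adjusted p = 0.36), with a negative sign on TPM, and Hsph1, the Hsp110 exchange factor, one of -0.26 ± 0.25 (adjusted p = 0.389), with a positive sign when libraries were scaled by their totals alone. Hspa12a, a distant Hsp70 relative, was read at between 4.03 and 5.47 CPM in rBMSCs and at 2, 1 and 1 counts in rEEOs, and its level in rBMSCs was 47.9 times that in rEEOs (95% exact counting interval 18.4 to 177, adjusted p = 4.87e-05). Such intervals cover counting error only.

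The small heat shock proteins, ATP-independent holders of unfolded protein, included both a member nearly absent from rEEOs and one nearly absent from rBMSCs. Hspb7, known from heart and muscle, was read at 27.3, 29.5 and 25.0 CPM in rBMSCs and at 0, 0.349 and 0.743 CPM in rEEOs, a log2 fold change of -6.30 ± 0.76 (adjusted p = 0.000567). Hspb2 showed the opposite pattern, with 0, 0.0733 and 0.155 CPM in rBMSCs and 1.75, 11.9 and 9.91 CPM in rEEOs. Its level in rEEOs was 95.1 times that in rBMSCs (95% exact counting interval 32.2 to 464, from 286 counts against 3, adjusted p = 0.00228).

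Cryab, the small heat shock protein alpha B-crystallin, is the next gene to Hspb2 in the genome. It was read at 24.8, 26.6 and 23.2 CPM in rBMSCs and at 15.7, 157 and 180.2 CPM in rEEOs. Replicates 2 and 3 of rEEOs lay above every rBMSCs library and replicate 1 lay below them. The log2 fold change was 2.24 ± 0.79 (adjusted p = 0.0452), and its call was lost in 9 of 15 alternatives, including each fit without an rBMSCs library, while its sign did not turn in any of the 15. Hspb2 was likewise lowest in replicate 1 of rEEOs. Strand is not stated for the counting, so where neighbouring genes overlap, their reads cannot be told apart. Whether the transcripts of Hspb2 and Cryab overlap was not examined.

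Hspb1 (Hsp27), the most abundant small heat shock protein of rBMSCs at 269 ± 15.9 TPM (SD, n = 3), was lower in rEEOs. It was read at 118, 138 and 118 CPM in rBMSCs and at 22.9, 74.5 and 44.4 CPM in rEEOs, without overlap but with a highest rEEOs library 3.25 times the lowest. The log2 fold change was -1.40 ± 0.40 (adjusted p = 0.0217), and without rBMSCs replicates 1, 2 and 3 the adjusted p was 0.0513, 0.0665 and 0.0519, and without rEEOs replicate 3 it was 0.0759.

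The abundant ER lumen chaperones did not pass the test, although the libraries of Hsp90b1 and Hyou1 did not overlap. Hspa5, the ER Hsp70 and the usual readout of ER stress, was read at 1422, 1498 and 1544 CPM in rBMSCs and at 1345, 1423 and 1792 CPM in rEEOs. The groups overlapped, and the log2 fold change was 0.03 ± 0.17 (adjusted p = 0.888), with a sign that turned without rBMSCs replicate 1, without rEEOs replicate 3 and on TPM. Hsp90b1 (Grp94) showed a log2 fold change of -0.23 ± 0.15 (adjusted p = 0.21), positive when scaled by totals alone. Canx, which holds glycoproteins, had one of 0.15 ± 0.17 (adjusted p = 0.472), negative on TPM, and Hyou1, the ER Hsp110, one of 0.39 ± 0.20 (adjusted p = 0.129). Every rEEOs library was lower for Hsp90b1 and higher for Hyou1.

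A pair of less abundant ER chaperones moved in opposite directions. Sdf2l1, which keeps BiP clients from aggregating, was read at 12.8, 13.3 and 14.2 CPM in rBMSCs and at 59.7, 28.1 and 43.2 CPM in rEEOs. Every rEEOs library was higher, at a log2 fold change of 1.70 ± 0.29 (adjusted p = 0.00245). Hspa13, an ER-associated Hsp70 relative, was read at 48.1, 41.2 and 49.3 CPM in rBMSCs and at 25.6, 8.11 and 8.59 CPM in rEEOs, and fell by 1.71 ± 0.47 on the log2 scale (adjusted p = 0.0184). Calr, Manf, Pdia4 and Herpud1 were not analysed here.

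All 4 oxidative folding genes passed, in both directions, where 63.4% of all genes passed. Pdia3, the disulfide isomerase that works with calnexin, was read at 805, 853 and 852 CPM in rBMSCs and at 1106, 1249 and 1189 CPM in rEEOs (log2 fold change 0.50 ± 0.14, adjusted p = 0.0199). Ero1b, the oxidase that recharges disulfide isomerases and is known from secretory cells, was read at 9.09, 8.50 and 11.2 CPM in rBMSCs and at 23.5, 38.3 and 22.8 CPM in rEEOs (1.55 ± 0.26, adjusted p = 0.00259). On the other side, Pdia6 fell by 0.51 ± 0.14 on the log2 scale (adjusted p = 0.0195), and Pdia5 fell by 1.97 ± 0.14 (adjusted p = 7.06e-05).
Pdia5 was at 51.8, 58.6 and 53.4 CPM in rBMSCs and at 14.4, 14.7 and 12.5 CPM in rEEOs, and so lay just short of the log2 fold change of 2 that Edem1, at -2.02, just passed. Pdia3 and Pdia6, the abundant members of the group, kept their call in 9 and 10 of 15 alternatives, whereas Pdia5 and Ero1b kept it in all 15. Pdia5 had fractional counts in every library.

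The mitochondrial chaperones did not move together. Hspe1, the Hsp10 lid of the mitochondrial chaperonin, was read at 36.0, 39.1 and 34.4 CPM in rBMSCs and at 43.5, 49.1 and 55.0 CPM in rEEOs (log2 fold change 0.43 ± 0.15, adjusted p = 0.0387). Hspd1, the Hsp60 barrel it closes, was read at 324, 318 and 325 CPM in rBMSCs and at 622, 388 and 403 CPM in rEEOs (0.55 ± 0.21, adjusted p = 0.0605). The pair shares the promoter stretch shown above, and in both genes every rEEOs library was higher. The call of Hspe1 was lost in 9 alternatives and its sign turned when the length trend described below was removed. Hspa9 (mortalin), the Hsp70 of the matrix, was read at 805, 809 and 827 CPM in rBMSCs and at 631, 477 and 512 CPM in rEEOs, and fell by 0.59 ± 0.16 on the log2 scale (adjusted p = 0.0168).

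The CCT subunits, which form the cytosolic chaperonin for actin and tubulin, were the most even group. The log2 fold changes of the 7 tested subunits lay between -0.20 (Cct4) and 0.29 (Cct2), and edgeR's quasi-likelihood test called 0 of 7, with 0 at an unadjusted p below 0.05. DESeq2 also called 0, with 1 at an unadjusted p below 0.05, limma on TPM called 1, lower in rEEOs, and scaling by library totals alone called 5, all higher. Their summed level was between 2207 and 2342 CPM in rBMSCs and 2206, 2568 and 2341 CPM in rEEOs replicates 1, 2 and 3. Tcp1, the remaining subunit gene of the ring, was not analysed here.

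The J-proteins, which deliver clients to Hsp70s, had median changes whose sign depended on the scaling. The median log2 fold change was -0.30 for the 6 grouped by symbol as those of the ER and -0.15 for the others. It was 0.09 and 0.22 when libraries were scaled by their totals alone. Grouping by symbol may leave J-proteins of the ER in other groups. Of these 6, Dnajc10 and Dnajb14 were lower (33.3%, against 30.2% of all genes). Dnajc10 (ERdj5), a reductase that unlinks disulfides before degradation, was read at 228, 213 and 241 CPM in rBMSCs and at 128, 57.6 and 60.6 CPM in rEEOs, and fell by 1.47 ± 0.33 on the log2 scale (adjusted p = 0.00831). Dnajc3 (p58IPK), whose promoter holds the ER stress element, showed a log2 fold change of 0.15 ± 0.11 (adjusted p = 0.271).

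Of the other 29 J-proteins, 5 were higher (17.2%, against 33.3% of all genes), 8 lower (27.6%, against 30.2%) and 16 did not pass. Dnajb1 (Hsp40), the partner of Hspa8 and Hspa1a in the heat shock response, was read at 105, 106 and 107 CPM in rBMSCs and at 70.2, 62.8 and 68.4 CPM in rEEOs, and fell by 0.66 ± 0.11 on the log2 scale (adjusted p = 0.00241). It was thus lower in the cell type in which Hspa8 and Hspa1a were higher. Dnajb5 was at 42.4, 45.9 and 38.7 CPM in rBMSCs and at 6.21, 4.45 and 6.19 CPM in rEEOs, and fell by 2.91 ± 0.20 (adjusted p = 5.3e-05). Dnajc6 (auxilin), which uncoats clathrin vesicles, was read at between 1.86 and 3.66 CPM in rBMSCs and at 1, 0 and 2 counts in rEEOs, and its level in rBMSCs was 35.1 times that in rEEOs (95% exact counting interval 11.7 to 173, adjusted p = 0.00102).

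In the opposite direction, Dnajc12 was read at 0.887, 1.17 and 1.01 CPM in rBMSCs and at 5.30, 3.66 and 9.74 CPM in rEEOs, at a log2 fold change of 2.60 ± 0.44 (adjusted p = 0.00251). Dnajc12 is known as the chaperone partner of aromatic amino acid hydroxylases. The other J-proteins called higher were Dnajc16, Dnajc17, Dnajc19 and Dnajc22, with log2 fold changes between 0.53 and 1.41.

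Among 7 co-chaperones, Bag2 and Bag3 were lower and Hspbap1 was higher (42.9% called, against 63.4% of all genes). Bag3, which couples Hsp70 to small heat shock proteins and selective autophagy, was read at 62.5, 71.9 and 62.5 CPM in rBMSCs and at 28.2, 30.3 and 26.9 CPM in rEEOs, and fell by 1.20 ± 0.13 on the log2 scale (adjusted p = 0.000389). Bag2, an inhibitor of the ubiquitin ligase Stub1, was at 59.6, 66.7 and 58.2 CPM in rBMSCs and at 22.0, 25.6 and 22.0 CPM in rEEOs, and fell by 1.41 ± 0.14 (adjusted p = 0.000254). Replicates of both genes lay close together in both cell types, including replicate 1 of rEEOs, and both calls held in all 15 alternatives. Hspbap1, named for its binding to Hspb1, was at 6.80, 6.15 and 8.22 CPM in rBMSCs and at 21.8, 44.0 and 25.5 CPM in rEEOs (log2 fold change 2.11 ± 0.31, adjusted p = 0.00143).

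Of 6 ER stress sensors, factors and effectors, Ern1, Xbp1 and Ppp1r15a were higher in rEEOs and Atf6, Atf4 and Ppp1r15b did not pass. For comparison, 33.3% of all genes tested were higher in rEEOs and 63.4% were called in either direction. On the arm of Ern1, the kinase and RNase that splices Xbp1 mRNA, Ern1 was read at 40.2, 34.7 and 39.5 CPM in rBMSCs and at 219.6, 167 and 143 CPM in rEEOs. Every rEEOs library lay above every rBMSCs library, at a log2 fold change of 2.21 ± 0.19 (adjusted p = 0.000144). Xbp1 was read at 175, 181 and 181 CPM in rBMSCs and at 326, 559 and 347 CPM in rEEOs (1.20 ± 0.23, adjusted p = 0.00449). Both calls held in all 15 alternatives, and counts per gene do not separate spliced from unspliced Xbp1. Ern2, the IRE1 isoform of mucosal epithelia, was not analysed here.

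On the arm of Atf6, the sensor that is cut in the Golgi to release a transcription factor, no call was made with all libraries. Atf6 was read at 211, 183 and 221 CPM in rBMSCs and at 231, 80.1 and 94.9 CPM in rEEOs. Replicate 1 of rEEOs lay above every rBMSCs library and replicates 2 and 3 lay below them all. The log2 fold change was -0.60 ± 0.41 (adjusted p = 0.234), and without rEEOs replicate 1 it was -1.20 (adjusted p = 0.000269).

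On the arm of Eif2ak3, which phosphorylates eIF2alpha to slow translation while Atf4 is translated, Atf4 was read at 647, 688 and 648 CPM in rBMSCs and at 455, 995 and 1109 CPM in rEEOs. The log2 fold change was 0.37 ± 0.33 (adjusted p = 0.357) and, without rEEOs replicate 1, 0.69 (adjusted p = 0.000921). Ppp1r15a (Gadd34), the phosphatase subunit by which translation restarts, was read at 105, 107 and 94.0 CPM in rBMSCs and at 112, 373 and 550.5 CPM in rEEOs, a log2 fold change of 1.76 ± 0.53 (adjusted p = 0.0263). It was highest in the rEEOs replicate with the highest immediate early genes and lowest in the one with the lowest, a relation over 3 libraries whose part in the call was not tested. The call was lost in 7 of 15 alternatives, among them each fit without an rBMSCs library. Its constitutive counterpart Ppp1r15b showed a log2 fold change of -0.01 ± 0.13 (adjusted p = 0.969). Eif2ak3, Ddit3, Trib3 and Atf5 were not analysed here.

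The Creb3 factors, relatives of Atf6 that are also released from the ER membrane by cleavage, varied most among the rEEOs libraries. Creb3l1 (OASIS), known for its part in collagen secretion, was read at 458, 478 and 465 CPM in rBMSCs and at 635, 87.6 and 585 CPM in rEEOs. Creb3l2 was read at 119, 91.3 and 123 CPM in rBMSCs and at 379.7, 39.7 and 53.1 CPM in rEEOs. The highest rEEOs library was 7.26 times the lowest for Creb3l1 and 9.57 times for Creb3l2, against 1.04 and 1.35 times in rBMSCs.
A different library decided each value. The log2 fold change of Creb3l1 was -0.10 ± 0.65 (adjusted p = 0.902), and 0.42 (adjusted p = 0.0346) without rEEOs replicate 2. That of Creb3l2 was 0.50 ± 0.84 (adjusted p = 0.62), and -1.24 (adjusted p = 0.00124) without rEEOs replicate 1. Of members read at 10 CPM or more in every rEEOs library, Ppp1r15a, Creb3l1, Creb3l2 and Hspb1 had a highest library over 3 times the lowest, and no member did so in rBMSCs. Creb3l4, known from glandular epithelia such as the prostate, was read at 1, 1 and 0 counts in rBMSCs and at 48, 109 and 53 counts in rEEOs, and its level in rEEOs was 105 times that in rBMSCs (95% exact counting interval 28.6 to 871, adjusted p = 0.000665).

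**Figure D3:**
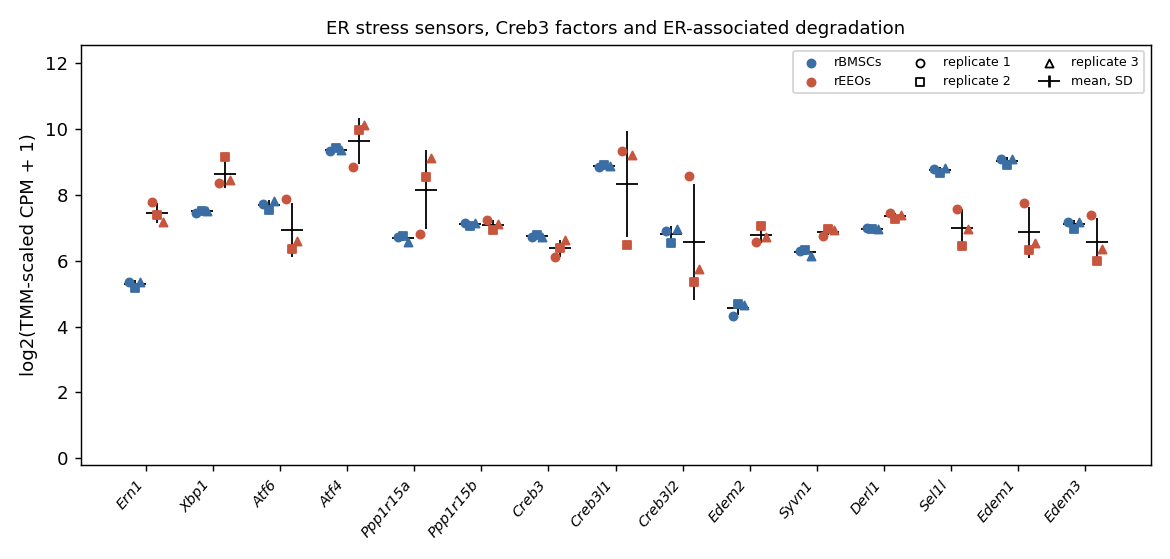
Each point is 1 library, placed by log2(TMM-scaled CPM + 1) on the vertical axis for the ER stress, Creb3 and ER-associated degradation genes named below the horizontal axis, with rBMSCs in blue, rEEOs in red, replicates by shape, and the mean with SD in black. Ern1, Xbp1 and Edem2 were higher and Edem1 and Sel1l lower in every rEEOs library, whereas the rEEOs libraries of Atf6, Creb3l1 and Creb3l2 fell on both sides of rBMSCs.

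Of 7 genes of ER-associated degradation, 6 were called (85.7%, against 63.4% of all genes), and the calls ran both ways within the pathway. Among the mannosidase-like proteins that mark misfolded glycoproteins, Edem1 and Edem2 changed in opposite directions. Edem1 was read at 536, 472 and 544 CPM in rBMSCs and at 213, 78.4 and 91.2 CPM in rEEOs, and fell by 2.02 ± 0.40 on the log2 scale (adjusted p = 0.00486). Edem2 was read at 18.9, 24.8 and 24.1 CPM in rBMSCs and at 94.2, 132 and 103 CPM in rEEOs (2.28 ± 0.19, adjusted p = 0.000127). By TPM, which allows levels of different genes to be set side by side, Edem1 exceeded Edem2 in rBMSCs, with 118 ± 11.9 against 17.8 ± 2.28 TPM (SD, n = 3), and the order was reversed in rEEOs, with 26.6 ± 21.0 against 72.1 ± 8.21 TPM. Edem3 did not pass.

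At the ubiquitin ligase complex of the ER membrane, the scaffold and the ligase also diverged. Sel1l, the scaffold, was read at 438, 404 and 451 CPM in rBMSCs and at 190.1, 85.5 and 124 CPM in rEEOs, and fell by 1.69 ± 0.30 on the log2 scale (adjusted p = 0.00288). Syvn1 (Hrd1), the ligase it steadies, was read at 78.0, 78.7 and 70.1 CPM in rBMSCs and at 106, 124 and 121 CPM in rEEOs (0.63 ± 0.12, adjusted p = 0.00482). Of the derlins, which help substrates through the membrane, Derl1 rose slightly (0.39 ± 0.11, adjusted p = 0.0243). Derl3, known from secretory cells, was read at 0.0739, 0 and 0.155 CPM in rBMSCs and at 1.99, 4.53 and 3.63 CPM in rEEOs, and its level in rEEOs was 42.9 times that in rBMSCs (95% exact counting interval 14.4 to 211, adjusted p = 0.000927). Counts of Derl3 were fractional in 4 libraries.

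Set beside the promoters, Xbp1, Ero1b and Derl3 were the genes with an ER stress element that were called, all higher in rEEOs. Hspa5, Hsp90b1, Canx and Dnajc3 hold the same element and had log2 fold changes between -0.23 and 0.15. Of the genes with the heat shock element, Hspa8 and Hspe1 were called higher, and the log2 fold changes of all 6 lay between -0.26 and 0.68. Of the 6 genes with the unfolded protein response element, Bag2, Bag3 and Dnajc10 were called lower, and the median log2 fold change was -0.87. Over all genes tested, 33.3% were higher and 30.2% lower. Whether calls differ between genes with and without an element was not tested, and the sets are small.

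Of 14 translocon and signal recognition genes, Sec61b was higher, Ssr1, Sec63 and Srp68 were lower and 10 did not pass, so that 28.6% were called, against 63.4% of all genes. The libraries did not overlap for 8 of the 14, 2 with every rEEOs library higher and 6 with every one lower. Of all genes, 36.9% and 35.9% did so. Ssr1 (TRAP alpha), which sits beside the Sec61 channel, was read at 481, 466 and 501 CPM in rBMSCs and at 291, 177 and 215 CPM in rEEOs, and fell by 1.09 ± 0.21 on the log2 scale (adjusted p = 0.00415). Sec61b, a small subunit of the channel, was read at 124, 133 and 124 CPM in rBMSCs and at 141, 193 and 199 CPM in rEEOs (0.48 ± 0.17, adjusted p = 0.0417), a call that was lost in 9 of 15 alternatives and a sign that turned when the length trend was removed.

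**Figure D4:**
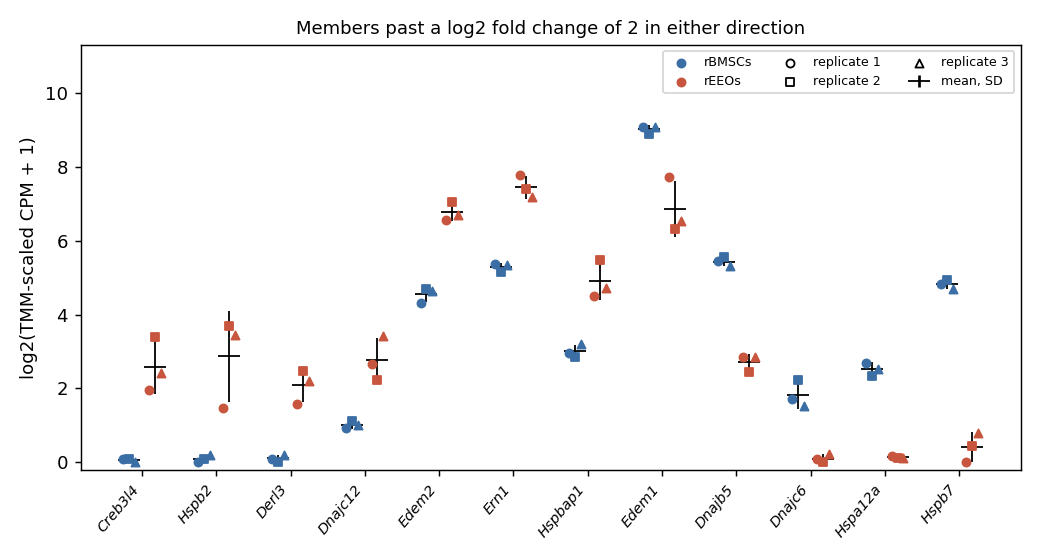
Each point is 1 library, placed by log2(TMM-scaled CPM + 1) on the vertical axis, for the 12 members with an adjusted p below 0.05 and an absolute log2 fold change above 2, with rBMSCs in blue, rEEOs in red, replicates by shape, and the mean with SD in black. The groups do not overlap in any of the 12, and Creb3l4, Hspb2, Derl3, Dnajc6, Hspa12a and Hspb7 were close to 0 in 1 cell type.

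The 12 members past both thresholds fell into those nearly absent from 1 cell type and those read in both. Creb3l4, Hspb2 and Derl3 had at most 3 counts in any rBMSCs library, and Hspa12a and Dnajc6 at most 2 in any rEEOs library. Hspb7 was nearly absent from rEEOs, as given above. Ern1, Edem2, Hspbap1, Dnajc12, Edem1 and Dnajb5 were read in every library. With a filter of 50 counts in 3 libraries, 3 higher (Ern1, Edem2 and Hspbap1) and 3 lower members (Dnajb5, Hspa12a and Hspb7) were past both thresholds. The filter left out Creb3l4, Hspb2, Derl3, Dnajc12 and Dnajc6, and Edem1 then fell just short of a log2 fold change of -2, at -1.998.

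Replicate 1 of rEEOs differed from replicates 2 and 3 in a way that followed transcript length, relative to other genes as given by the ratio of counts to FPKM. Over all genes, the median log2 ratio of replicate 1 to the mean of replicates 2 and 3 was -0.39 in the shortest and 0.48 in the longest of 4 length classes, set by the quartiles over all genes. Over members it was -0.43 in the shortest class (32 members) and 0.73 in the longest (18 members), where replicate 1 was the highest of the rEEOs libraries for 16 of the 18. The called members also differed in length: the median relative length was 0.712 for those higher, 1.05 for those lower and 0.846 for those that did not pass, against 0.882, 1.27 and 0.954 over all genes. When a trend on length was removed from each library, which was decided on once the data had been seen, 23 members were higher and 33 lower. Over members the median SD of log2(CPM + 1) was 0.0700 in rBMSCs and 0.252 in rEEOs, and the SD was larger in rEEOs for 105 of 109 members. Replicate 1 of rEEOs also differed in marker genes. In rEEOs replicates 1, 2 and 3, Mki67 (relative length 4.66) was at 238, 9.77 and 24.9 CPM and Cldn4 (0.703) at 124, 889 and 786 CPM. Ccnb1, Mcm2 and Mcm5, of relative length 1.39, 1.36 and 1.28, were also highest in replicate 1. Pcna, of shorter relative length (0.395), was likewise highest in replicate 1, at 122, 54.8 and 92.1 CPM. The part of length and of cell state in these differences was not tested.

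**Figure D5:**
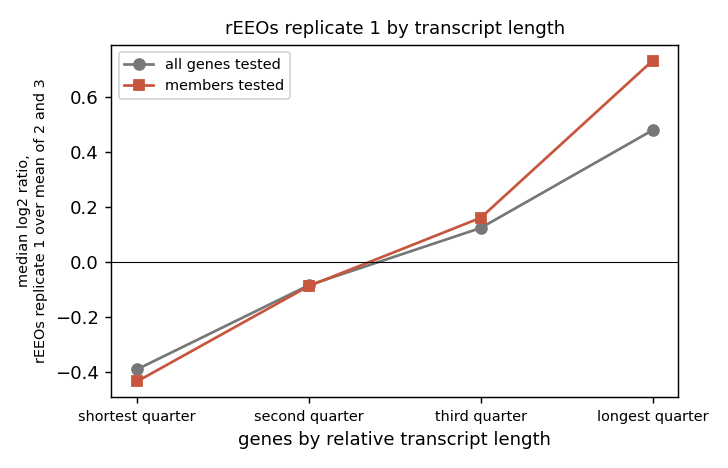
The median log2 ratio of rEEOs replicate 1 to the mean of rEEOs replicates 2 and 3 (vertical axis) is plotted for genes in 4 classes of relative transcript length (horizontal axis, split at the quartiles), for all genes tested (grey circles) and members tested (red squares). Both lines rise from short to long transcripts, from -0.39 to 0.48 over all genes and from -0.43 to 0.73 over members.

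Genes of the same pathway whose symbols the pattern does not cover were taken from a separate list of 109 genes, of which 87 reached 10 counts and all 87 were tested. Of these, 18 were higher, 19 lower and 50 did not pass (42.5% called, against 63.4% of all genes), with 3 higher and 7 lower past a log2 fold change of 2 (11.5%, against 29.7% of all genes). The median absolute log2 fold change was 0.43. Among other folding enzymes of the ER lumen, P4hb, the archetypal disulfide isomerase, showed a log2 fold change of -0.11 ± 0.17 (adjusted p = 0.584), positive when scaled by totals alone or without rEEOs replicate 1.

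Serpinh1 (Hsp47), the chaperone of procollagen, was read at 5208, 5466 and 5085 CPM in rBMSCs and at 5.30, 16.4 and 26.6 CPM in rEEOs, and fell by 8.35 ± 0.71 on the log2 scale (adjusted p = 0.000129). Fkbp10 and Fkbp14, prolyl isomerases that act on collagen, were named after their values were seen and had log2 fold changes of -7.94 and -2.37. Ppib, a further prolyl isomerase of the ER, showed one of -0.31 (adjusted p = 0.148) and was likewise named after its value was seen. The mesenchymal genes, fibrillar collagens among them, differed in the same direction as given above, and their part in these levels was not tested. Uggt2, a folding sensor of glycoproteins, was read at 106, 99.6 and 112 CPM in rBMSCs and at 0 counts in every rEEOs library, at least 461-fold lower against a floor of 3 counts per library (adjusted p = 2.02e-05). Its paralog Uggt1 showed a log2 fold change of -0.43 (adjusted p = 0.327). In the opposite direction, Fkbp11, known from secretory cells, rose by 1.09 ± 0.20 on the log2 scale (adjusted p = 0.00318).

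Subunits of the complexes that modify proteins on entry differed one from another. Of 10 oligosaccharyltransferase genes, Tmem258 (1.01 ± 0.23, adjusted p = 0.00881) and Dad1 were higher, and Tusc3 (-1.23 ± 0.14, adjusted p = 0.000513) and Ostc were lower in rEEOs. The share called was 40.0%, against 63.4% of all genes. Of the 4 signal peptidase genes, the catalytic subunits Sec11a and Sec11c were higher. Sec11a was read at 138, 147 and 133 CPM in rBMSCs and at 379, 614 and 536 CPM in rEEOs (1.87 ± 0.21, adjusted p = 0.0004).

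Of 13 other ER stress and integrated stress response genes, 4 were higher and 3 lower (53.8% called, against 63.4% of all genes). Atf3, a factor induced downstream of Atf4, was read at 4.07, 6.15 and 4.11 CPM in rBMSCs and at 49.5, 1050.0 and 924 CPM in rEEOs, a log2 fold change of 7.14 ± 1.21 (adjusted p = 0.00252). It is also an immediate early gene of the list given above, and like that list it was lowest in replicate 1 of rEEOs. Stc2, a secreted glycoprotein of the same response, was at 9.46, 8.13 and 7.21 CPM in rBMSCs and at 0.241, 0 and 0.330 CPM in rEEOs, and fell by 5.33 ± 0.64 on the log2 scale (adjusted p = 0.000567).

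Among 16 other degradation genes, 3 were higher and 4 lower (43.8% called, against 63.4% of all genes). Rnf5, a ubiquitin ligase of the ER membrane, rose from between 20.1 and 24.2 CPM to between 59.1 and 71.4 CPM (1.57 ± 0.15, adjusted p = 0.000211), and Nploc4, an adaptor of the Vcp segregase, fell by 1.12 ± 0.29 on the log2 scale (adjusted p = 0.0144). Of 17 other cytosolic chaperone genes, 2 were higher and 3 lower (29.4% called). Hsf4, the heat shock factor best known from the lens, fell by 2.88 ± 0.58 (adjusted p = 0.00519). Of 9 other mitochondrial genes, 4 were higher (44.4%, against 33.3% of all genes), namely Clpb (0.88 ± 0.17, adjusted p = 0.00422), Trap1, Afg3l2 and Grpel1.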

How the data were processed

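RNA from 3 rEEOs and 3 rBMSCs samples was sequenced by the authors as 150-bp single-end reads, trimmed with Trim Galore and aligned with Bowtie2 2.2.5; the submitters' processing notes name the build Rnor_6.0, and the paper names RSEM. The deposited table gives an expected count, a TPM and an FPKM for each gene and library. The copy analysed holds 13728 genes, whose TPM sum to between 81.3% and 82.7% of a library's total, and some genes of the pathway were not analysed here. Between 7.31% and 8.44% of the deposited expected counts are not whole, and 12 members have such values (Hspa1a, Hspa8, Canx, Pdia5, Hspa9, Bag5, Dnajb6, Srp72, Hsp90aa1, Derl3, Dnajc14 and Srp68), so their levels are uncertain where reads were shared with similar copies.

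Counts were rounded and tested with edgeR 4.0.16 (TMM, glmQLFit, glmQLFTest) in R 4.3.3 with cell type as the only term. TMM factors ranged from 0.866 to 0.885 (rBMSCs) and from 1.10 to 1.19 (rEEOs). A count of 3 corresponded to between 0.181 and 0.262 CPM, so differences near that level were not detectable at this depth. FPKM deposited by the authors gave relative lengths. An exact permutation test of 1 gene over these 6 libraries could not go below p = 0.1. A gene that did not pass may still differ. In a simulation of 10607 genes with the fitted dispersions, 9 of 86 true changes of 1 on the log2 scale were recovered. Of changes of 3, 103 of 114 were. Far fewer genes changed there than were called here, which makes the adjustment stricter. The simulation therefore cannot give the rate of missed changes in these data. The authors' 6 columns of group means were not used.

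Genes were named by a rule: a list of core genes, the member called with the largest change in each direction in each role group, and all members past a log2 fold change of 2. Others were named after their values were seen. The members, role groups, motifs and lists were chosen with earlier results of these data known. The proliferation list (5 genes held) summed to 914 to 1034 CPM in rBMSCs and 124 to 646 CPM in rEEOs, highest in replicate 1. Alternatives were DESeq2 1.42.0, its size factors in edgeR, library totals alone, filters of 1 or 50 counts, limma 3.58.1 on log2(TPM + 1) or log2(TPM + 0.1), a replicate block, leaving out each library, and a length trend (lowess, span 0.3). RefSeq promoters of GRCr8 were used for sequence only.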

Additional observations from a re-analysis of the deposited data

How the results depend on the processing

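With library totals alone, 46 members were higher and 16 lower, and 31 and 10 of the other pathway genes. With a filter of 50 counts, 3 higher and 3 lower members were past a log2 fold change of 2. On log2(TPM + 1), 14 members were higher, 2 of them past 2, and 32 other pathway genes were lower; on log2(TPM + 0.1), 13 members were higher and 32 other pathway genes lower. Leaving out each library gave 13 to 37 members higher, 17 to 39 lower, 7 to 9 and 4 to 8 past 2, and 15 to 31 and 14 to 30 other pathway genes. The highest of these counts all came without rEEOs replicate 1. DESeq2 called 26 and 28 members. Signs turned only for small or uneven changes. With totals alone the log2 fold change was 0.30 for Creb3l1, 0.13 for Hsf1, 0.15 for Hsp90b1, 0.13 for Hsph1 and 0.26 for P4hb. On TPM with a pseudocount of 1 or 0.1 it was -0.094 and -0.095 for Canx, -0.10 and -0.11 for Dnajc3, -0.11 for Hsp90aa1, -0.23 for Hspa5 and -0.46 and -0.50 for Creb3l2. Over fits without 1 library it ranged from -0.10 to 0.14 for Hspa5, from -0.44 to 0.42 for Creb3l1, from -1.24 to 0.99 for Creb3l2 and from -0.23 to 0.0063 for P4hb. With the length trend removed it was -0.082 for Dnajc3, -0.16 for Hspe1 and -0.14 for Sec61b. The cause of these changes was not tested. Same-numbered deviations of the cell types correlated at 0.170, 0.193 and -0.175, and different-numbered ones at between -0.292 and 0.256. Deviations from a mean of 3 libraries are tied to one another, so these values cannot decide whether replicate numbers pair the samples. With a replicate block, 15 members were higher and 22 lower, and Creb3l2 was -0.31.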
